A study of Mus musculus with 28 samples.

Results

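The genes described here carry the names of bone morphogenetic proteins (BMPs) and growth differentiation factors (GDFs): Bmp1, Bmp2, Bmp3, Bmp4, Bmp5, Bmp6, Bmp7, Gdf5, Gdf6 and Gdf10. These 10 genes were picked by symbol, with earlier results of these data known. All 10 were found among the 54429 gene identifiers of the deposited count table. BMPs and GDFs are secreted ligands of the TGF-beta superfamily, cut from larger precursors by furin-type proteases. They bind pairs of type I and type II serine/threonine kinase receptors, which phosphorylate Smad1, Smad5 or Smad9, and these enter the nucleus with Smad4 and switch on genes such as the Id family and the inhibitory Smads. In the cranial neural crest, BMP signals pattern the face and drive cartilage and bone formation, and secreted antagonists such as noggin, chordin and gremlin trap the ligands outside the cell. Bmp1 has the family's name only: it encodes a tolloid-type metalloprotease that trims procollagens and frees BMPs from chordin, so it is described apart from the 9 ligands.

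The cells were O9-1, an established mouse line of cranial neural crest cells. RNA was sequenced from 28 libraries in 8 groups, with 4 libraries in each group kept at 21% O2 (called normoxic here) and 3 in each group kept at 0.5% O2 (hypoxic). Proliferating cultures grew in conditioned medium with 15% serum, 25 ng/ml bFGF and 5 ng/ml LIF. Chondrocyte cultures spent 3 days in osteoblast medium and then 7 days as micromasses in medium with 5% serum, 0.1 µM dexamethasone, 10 ng/ml TGF-beta3 and 50 ng/ml BMP-2 protein. Osteoblast cultures spent 10 days in medium with 10% serum, beta-glycerophosphate, 0.1 µM dexamethasone and 100 ng/ml BMP-2 protein. Smooth muscle cultures spent 3 days in medium with 10% serum and no named growth factor. Recombinant protein adds no transcript, so the values below are RNA made by the cells, but the chondrocyte and osteoblast groups were bathed in a ligand of the family and the other groups were not. Medium, days in culture and cell state change together between these groups and cannot be told apart. The libraries come from 1 line, and the labels do not say whether replicates were separate cultures, so p-values measure only the spread between these libraries.

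Library totals ran from 19.87 to 64.69 M counts, with a median of 26.795 M. Levels are CPM, counts per 1 M of library totals scaled by TMM, a method that sets most genes to no change between libraries. The 3 hypoxic smooth muscle libraries stood apart: mitochondrial ribosomal RNA took 11.6 to 13.3% of their counts against at most 0.0889% in the other 25 libraries, and their TMM factors were 0.505 to 0.533 against 0.901 or more. Their smooth muscle markers (Acta2, Tagln, Cnn1, Myh11) summed to 28.5 to 42.3 CPM, which overlaps hypoxic proliferating cultures (36.3 to 43.3) and lies far below normoxic smooth muscle cultures (3323 to 3757). The blood marker list (Ptprc, Cd68, Hbb-bs) summed to 33.0 to 36.4 CPM there and to at most 5.41 CPM elsewhere, nearly all of it Cd68, with 1 of its 3 genes at 0. The normoxic smooth muscle cultures held 47.2 to 60.2 CPM of the adipocyte list, nearly all Lpl, against at most 2.37 CPM in other groups. Chondrocyte markers were highest in the chondrocyte cultures, with 6964 to 14086 summed CPM at 21% O2 and 5302 to 5565 at 0.5% O2. They also reached 1754 to 2701 CPM in normoxic osteoblast, 1289 to 1317 CPM in hypoxic osteoblast and 949 to 1105 CPM in normoxic smooth muscle cultures, against 22.2 to 30.6 CPM in normoxic proliferating ones. Tubb3, a tubulin typical of neurons, was at 41.9 to 74.4 CPM in normoxic and 69.3 to 99.1 CPM in hypoxic chondrocyte cultures, against at most 16.4 CPM in other groups. Smooth muscle markers reached 3064 to 4682 CPM in normoxic osteoblast cultures, overlapping normoxic smooth muscle cultures. Osteoblast markers (Runx2, Sp7, Alpl, Ibsp, Bglap) summed to 62.7 to 146 CPM in normoxic osteoblast cultures against 58.4 to 67.4 CPM in normoxic proliferating cultures, sums led by Runx2, while 3 of the 4 tested were called higher (median log2 fold change 7.40). They summed to 366 to 393 CPM in hypoxic osteoblast cultures and to 1052 to 2548 CPM in normoxic chondrocyte cultures. Where these markers or mitochondrial RNA move with a result below, their part in the result was not tested. Group names below are the labels' and not a statement of cell identity.

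Of the 10 genes, 6 had enough counts to be tested in at least 1 comparison (Bmp1, Bmp2, Bmp3, Bmp4, Bmp6, Gdf5). The other 4 were at or near 0 everywhere. Bmp5 had 22 counts in all 28 libraries together, spread over 8 libraries, Gdf6 had 9 counts in 3 libraries, Bmp7 had 7 counts in 3 libraries and Gdf10 had 2 counts in 1 library. A gene with no count in any library could still have been present at up to 0.00362 CPM (3 counts over all 28 libraries, counting error only). Bmp5 and Bmp7 are close relatives of Bmp6, Gdf6 is the partner of Gdf5 in joint formation, and Gdf10 is the close relative of Bmp3.

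In GRCm38 coordinates the 6 tested genes lie at chr14:70474558-70520234 (Bmp1, minus strand), chr2:133552159-133562885 (Bmp2, plus strand), chr5:98854415-98884396 (Bmp3, plus strand), chr14:46383520-46390669 (Bmp4, minus strand), chr13:38345107-38500302 (Bmp6, plus strand) and chr2:155941023-155945367 (Gdf5, minus strand). An exon of Bmp6 meets the oppositely transcribed gene Txndc5, which had 337723 counts in all, and whether the counting used strand is not given in the sources used here. Gdf5 meets Gm15557, which had 54 counts in all.

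RefSeq's promoter table held 4 of the 10 genes (Bmp4, Bmp5, Bmp6, Gdf10). Of these, 3 are shown as the 250 bases before the transcript start, for a gene that went from near 0 to a leading one of the 9 ligands (Bmp4) and for 2 that stayed near 0 (Bmp5, Gdf10). They are printed 5′ to 3′ on the gene's strand from GRCm38.p6, and capitals mark the 1 place where ACGTG, the core letters bound by hypoxia-inducible factors, was found on both strands at once in these windows. The window of Bmp6 is not printed, since it lies inside the gene as GENCODE draws it, and it also holds ACGTG on both strands (2 matches).
Bmp4, chr14:46390670-46390919, minus strand: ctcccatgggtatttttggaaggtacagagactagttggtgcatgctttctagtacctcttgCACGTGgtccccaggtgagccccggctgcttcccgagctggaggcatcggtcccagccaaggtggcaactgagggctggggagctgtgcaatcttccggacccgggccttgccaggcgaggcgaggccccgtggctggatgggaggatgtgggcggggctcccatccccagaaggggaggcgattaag
Bmp5, chr9:75775115-75775364, plus strand: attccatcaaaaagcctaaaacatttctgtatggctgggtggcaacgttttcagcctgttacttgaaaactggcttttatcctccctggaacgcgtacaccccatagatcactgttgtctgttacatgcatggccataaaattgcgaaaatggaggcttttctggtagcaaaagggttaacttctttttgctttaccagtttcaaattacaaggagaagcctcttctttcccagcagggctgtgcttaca
Gdf10, chr14:33923337-33923586, plus strand: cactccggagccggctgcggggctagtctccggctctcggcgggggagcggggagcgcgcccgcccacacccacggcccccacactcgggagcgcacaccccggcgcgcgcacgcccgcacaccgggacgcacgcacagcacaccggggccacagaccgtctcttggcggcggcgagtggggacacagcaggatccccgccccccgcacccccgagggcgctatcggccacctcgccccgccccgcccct
The Bmp4 window is 63.2% G and C with 11 CpG pairs, the Bmp5 window 42.8% with 4 pairs and the Gdf10 window 78.8% with 35 pairs. The median over 32851 promoters of the same length was 52.4% with 6 pairs. ACGTG occurred in 16.6% of those promoters and the GC-rich Smad element GGCGCC in 9.59%. GGCGCC was in none of the windows shown, both strands searched. A match or its absence describes the letters and says nothing of binding.

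Levels of different genes were compared per kilobase (kb) of exon. By this measure the leading transcript among the 9 ligands changed with the culture. Other ligands such as Bmp8a and Gdf11 were not put on this scale, so a leader named here leads among the 9 only. In CPM, not scaled for length, Bmp8a was above Bmp4 in both chondrocyte groups and in hypoxic osteoblast cultures. Bmp2, the classical bone-inducing ligand, made up 95.2% ± 1.73 (SD, n = 4) of the 9 ligands' summed CPM per kb in normoxic proliferating cultures and 83.1% ± 2.06 (SD, n = 3) in hypoxic ones. It also led the 9 in chondrocyte cultures, with 74.3% ± 13.5 (SD, n = 4) at 21% O2 and 80.4% ± 7.99 (SD, n = 3) at 0.5% O2. Bmp4, a near relative of Bmp2 that acts through the same receptors, took over in osteoblast cultures with 56.0% ± 4.14 (SD, n = 4) and 72.8% ± 1.25 (SD, n = 3). Normoxic smooth muscle cultures were led by Bmp3, an atypical member known to oppose BMP signalling, at 52.8% ± 8.28, with Bmp4 at 34.6% ± 8.33, Gdf5 at 10.8% ± 1.19 and Bmp2 at 1.66% ± 0.608 (SD, n = 4). Hypoxic smooth muscle cultures held few transcripts of these ligands: the 9 summed to 1.15 ± 0.279 CPM per kb (SD, n = 3) against 25.1 ± 1.17 (SD, n = 4) at 21% O2. These are the 3 libraries rich in mitochondrial ribosomal RNA, and its part in the result was not tested. In bulk RNA, fewer cells of a type and less RNA per cell cannot be told apart. The stacked shares show these handovers.

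**Figure D1:**
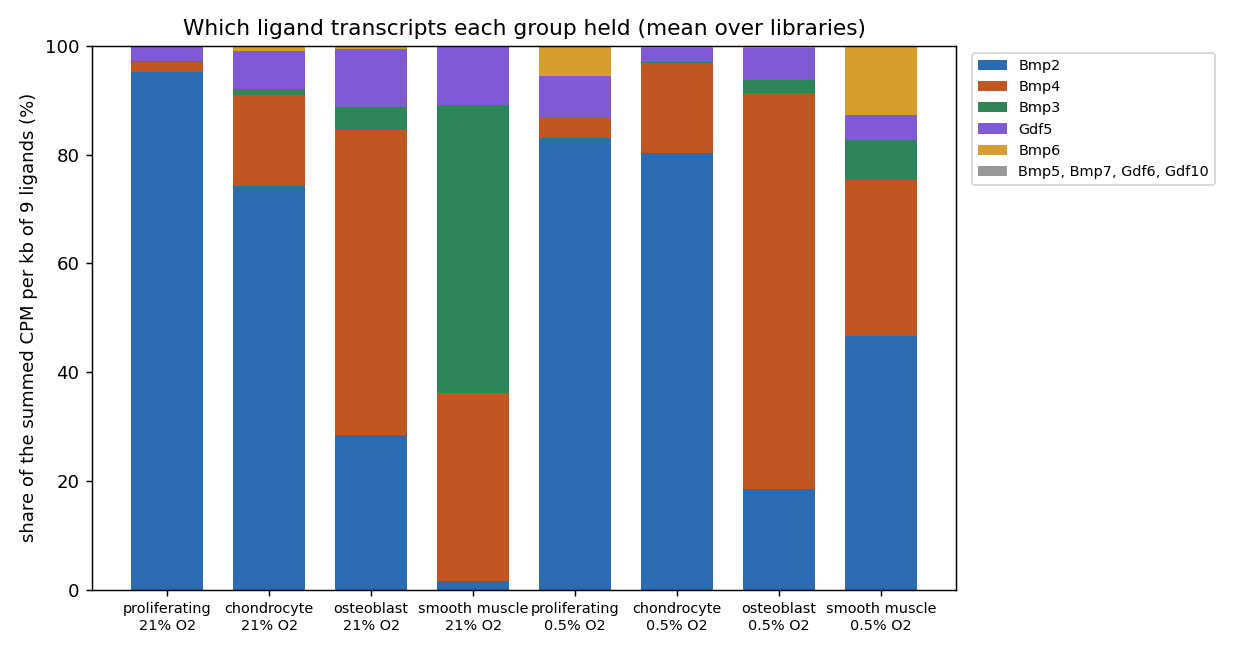
Mean share (%) of each ligand in the summed CPM per kb of the 9 ligands, in stacked bars from 0 for the 8 groups. Bmp2 fills 95.2% of the bar in normoxic proliferating cultures, Bmp4 72.8% in hypoxic osteoblast cultures and Bmp3 52.8% in normoxic smooth muscle cultures. Bars are means over 4 (21% O2) or 3 (0.5% O2) libraries, and the bar for hypoxic smooth muscle rests on a sum of only 1.15 CPM per kb.

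The balance of Bmp2 to Bmp4 moved over a wide range. The log2 ratio of Bmp2 to Bmp4 per kb was 5.75 ± 0.74 in normoxic proliferating, 2.34 ± 1.2 in chondrocyte, -0.98 ± 0.21 in osteoblast and -4.42 ± 0.72 in smooth muscle cultures (SD, n = 4). At 0.5% O2 the same ratio was 5.38 ± 2.26, 2.38 ± 0.75, -1.97 ± 0.19 and 0.99 ± 1.68 (SD, n = 3). Bmp2 thus exceeded Bmp4 in every library of both proliferating and both chondrocyte groups and was below it in every osteoblast and every normoxic smooth muscle library. Hypoxic smooth muscle libraries ranged from -0.38 to 2.86.

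**Figure D2:**
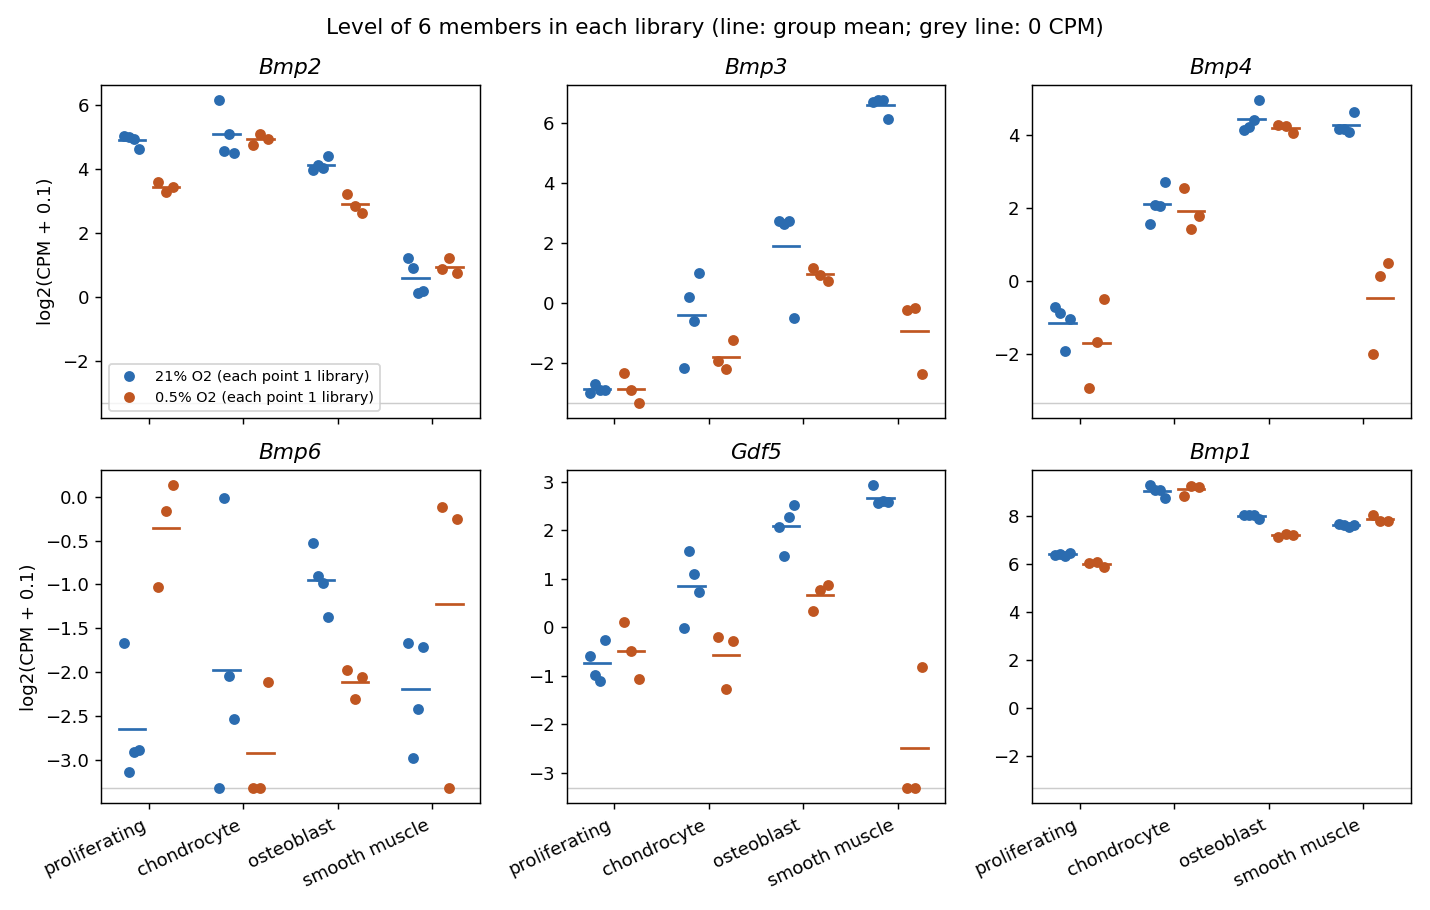
Level of 6 genes in each of the 28 libraries on a log2(CPM + 0.1) axis, by culture (x axis) and oxygen level (colour), each point 1 library and each short line the mean of the group's log2 values. Bmp3 stands at 70.4 to 109 CPM in normoxic smooth muscle cultures and at no more than 0.798 CPM in hypoxic ones. The y ranges differ between panels.

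Changes were tested with edgeR's quasi-likelihood test on the 2 groups compared, with p-values adjusted by Benjamini-Hochberg over all genes tested, and a gene is called at an adjusted p under 0.05. Calls were common among all genes, so a count of called members close to the share of all genes called is no result about the family. Against normoxic proliferating cultures, 3 of 4 tested members were called in chondrocyte cultures (74.9% of all genes tested), 5 of 5 in osteoblast cultures (78.7%) and 5 of 5 in smooth muscle cultures (79.7%). At 0.5% O2, 4 of 5 were called in chondrocyte cultures (69.5%), 6 of 6 in osteoblast cultures (71.3%) and 2 of 5 in smooth muscle cultures (70%). Comparing 0.5% with 21% O2, 3 of 5 were called in proliferating (65.4%), 1 of 5 in chondrocyte (22.2%), 4 of 6 in osteoblast (54.3%) and 4 of 5 in smooth muscle cultures (75.6%). Members tested are those that passed a filter on low counts, which a gene can pass through the higher group alone. Comparisons with a common control group share those libraries.

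Bmp2 stood at 32.7, 31.5, 30.1 and 24.3 CPM in the 4 normoxic proliferating libraries and at 12, 9.66 and 10.7 CPM in the 3 hypoxic ones. All hypoxic libraries lay below all normoxic ones, and Bmp2 fell by 1.40 on the log2 scale (SE 0.11, adjusted p = 7.63e-08). In chondrocyte cultures it was 70.8, 23.5, 33.6 and 22.6 CPM at 21% O2 and 26.6, 33.6 and 30.7 CPM at 0.5% O2. These groups overlapped, and replicate 1 of the normoxic group was far above the rest. The normoxic chondrocyte change from proliferating was not called (log2 fold change 0.42, SE 0.37, adjusted p = 0.323) and turned to -0.08 without that replicate, while the hypoxic change was called (1.48, SE 0.12, adjusted p = 1.10e-07). The difference between these 2 changes was itself not called (1.09, SE 0.49, adjusted p = 0.0947), but was called without normoxic chondrocyte replicate 1 (1.60, adjusted p = 1.25e-05). With that library kept it was also called in the fit of all 28 libraries (1.14, adjusted p = 0.028) and with a replicate block (1.22, adjusted p = 0.0474).

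Osteoblast cultures held 15.4, 17.2, 16.1 and 20.8 CPM of Bmp2 at 21% O2 and 9.06, 7.01 and 6.09 CPM at 0.5% O2. Both groups lay below their proliferating libraries, with log2 fold changes of -0.72 (SE 0.12, adjusted p = 0.00038) and -0.55 (SE 0.16, adjusted p = 0.00577). The hypoxic call was lost in the fit of all 28 libraries (adjusted p = 0.14). The hypoxic libraries were again below all normoxic ones, and with low oxygen Bmp2 fell by 1.24 on the log2 scale (SE 0.17, adjusted p = 0.000281). Smooth muscle cultures had the lowest Bmp2, at 2.20, 1.77, 0.986 and 1.02 CPM at 21% O2 and 1.72, 2.19 and 1.57 CPM at 0.5% O2. Relative to proliferating cultures Bmp2 fell by 4.26 (SE 0.20, adjusted p = 3.29e-10) and by 2.44 (SE 0.24, adjusted p = 2.85e-06), and the difference of these changes was called (1.79, SE 0.35, adjusted p = 0.000102). Between the smooth muscle groups the level overlapped (0.35, SE 0.42, adjusted p = 0.454). With scaling by library totals alone this last change was -1.02 (adjusted p = 0.0333) and the difference of changes was not called (0.46, adjusted p = 0.224). Over all alternatives the fall from hypoxic proliferating to hypoxic smooth muscle cultures ran from -3.72 to -2.36 and stayed called.

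Bmp4 was near 0 in proliferating cultures, at 0.511, 0.446, 0.166 and 0.385 CPM at 21% O2 and 0.0325, 0.216 and 0.616 CPM at 0.5% O2. These groups overlapped and did not pass the test (-0.37, SE 0.65, adjusted p = 0.633), with values of -1.59 without hypoxic replicate 3 and 0.17 without hypoxic replicate 1. Osteoblast cultures held 17.6, 18.6, 21.1 and 30.8 CPM at 21% O2 and 19.3, 18.7 and 16.4 CPM at 0.5% O2. All 7 libraries were above every proliferating library, and Bmp4 rose by 5.86 (SE 0.30, adjusted p = 8.26e-08) and 5.97 (SE 0.34, adjusted p = 2.09e-09) on the log2 scale. Low oxygen made no called difference in osteoblast cultures (-0.28, SE 0.19, adjusted p = 0.242), nor in the change from proliferating (0.16, SE 0.65, adjusted p = 0.86). The SE of that last difference is wide, so it does not show that the 2 changes were alike.

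In chondrocyte cultures Bmp4 was intermediate, at 2.87, 4.12, 4.05 and 6.44 CPM at 21% O2 and 5.70, 2.60 and 3.35 CPM at 0.5% O2. The groups overlapped with each other (-0.17, SE 0.31, adjusted p = 0.758) and lay between the proliferating and the osteoblast libraries. The rises from proliferating were 3.56 (SE 0.34, adjusted p = 1.16e-06) and 3.74 (SE 0.61, adjusted p = 0.000392). Smooth muscle cultures split by oxygen, with 17.8, 17.9, 16.8 and 24.7 CPM at 21% O2 and 0.150, 0.997 and 1.3 CPM at 0.5% O2. Every hypoxic library was below every normoxic one, and Bmp4 fell by 4.58 (SE 0.35, adjusted p = 1.57e-08). Over all alternatives this fall ran from -5.94 to -4.02 and stayed called. The rise from proliferating was called at 21% O2 (5.66, SE 0.21, adjusted p = 1.35e-12) and not at 0.5% O2 (1.56, SE 0.97, adjusted p = 0.165), and the difference of the 2 was called (-4.14, SE 0.84, adjusted p = 0.000219). The low counts in hypoxic proliferating libraries weigh on the hypoxic changes: without replicate 3 there they were 4.96 in chondrocyte and 7.19 in osteoblast cultures, the uncalled smooth muscle change was 2.75, and the smooth muscle difference was -2.91 (adjusted p = 0.0243).

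**Figure D3:**
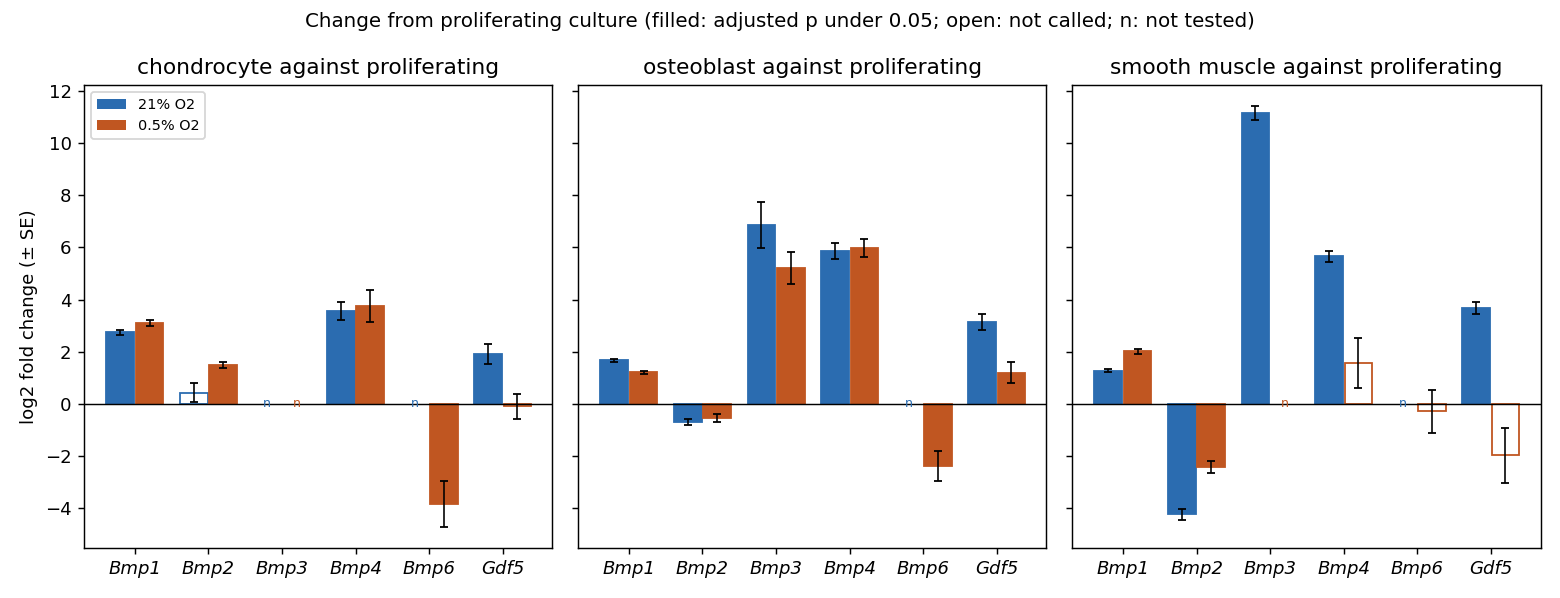
Log2 fold change from proliferating cultures (bars, ± SE) of the 6 tested genes in chondrocyte, osteoblast and smooth muscle cultures at 21% O2 (blue) and 0.5% O2 (orange). Bmp4 rises by 5.86 and 5.97 in osteoblast cultures at the 2 oxygen levels, while in smooth muscle cultures its change is 5.66 at 21% O2 and an uncalled 1.56 at 0.5% O2. Open bars did not pass the test and n marks genes not tested.

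Bmp3 was in effect a transcript of normoxic smooth muscle cultures, at 104, 109, 109 and 70.4 CPM. Normoxic proliferating libraries had 1 to 4 counts each (0.0269 to 0.054 CPM), so the groups were far apart and the fitted rise was 11.17 on the log2 scale (SE 0.27, adjusted p = 2.88e-12). Hypoxic smooth muscle libraries had 10, 8 and 1 counts (0.75, 0.798 and 0.0926 CPM), and Bmp3 fell by 7.39 from 21% O2 (SE 0.30, adjusted p = 1.05e-11). Over all alternatives this fall ran from -8.75 to -6.94 and stayed called. The SEs of the rise and the fall come from tests against no change. They do not measure the error of sizes that rest on so few counts. The difference between the changes from proliferating was -7.55 (SE 1.78, adjusted p = 0.000757). It was no longer called without hypoxic proliferating replicate 1 (-6.36, adjusted p = 0.0858) or in the fit of all 28 libraries (-7.60, adjusted p = 0.0714). Normoxic osteoblast cultures held 6.57, 6.07, 6.61 and 0.609 CPM, and hypoxic ones 2.17, 1.82 and 1.58 CPM. Replicate 4 at 21% O2 was the only normoxic library below the hypoxic ones. The oxygen difference was not called with it (-1.41, SE 0.68, adjusted p = 0.112) and was called without it (-1.79, adjusted p = 1.81e-06). With all libraries kept it was also called by DESeq2 (adjusted p = 0.0287) and in the fit of all 28 libraries (adjusted p = 0.0288). Both osteoblast groups were above proliferating cultures (6.87, SE 0.88, adjusted p = 5.21e-05, and 5.22, SE 0.61, adjusted p = 1.37e-06), the second being 6.40 without hypoxic proliferating replicate 1. In chondrocyte cultures Bmp3 was 0.123, 1.05, 0.569 and 1.93 CPM at 21% O2 and 0.161, 0.118 and 0.329 CPM at 0.5% O2. Those groups overlapped (-2.13, SE 0.82, adjusted p = 0.089), though the change was called with DESeq2 (-2.17, adjusted p = 0.0313) and without normoxic chondrocyte replicate 1 (-2.50, adjusted p = 0.0116).

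Gdf5, a ligand known for its part in joint and cartilage formation, was low throughout. It stood at 7.50, 5.80, 5.97 and 5.86 CPM in normoxic smooth muscle cultures, 4.09, 2.68, 4.75 and 5.61 CPM in normoxic osteoblast cultures and 0.895, 2.87, 2.03 and 1.56 CPM in normoxic chondrocyte cultures. Each of these libraries was above every normoxic proliferating library (0.364 to 0.735 CPM). The rises were 3.69 (SE 0.23, adjusted p = 3.74e-10), 3.13 (SE 0.31, adjusted p = 7.91e-06) and 1.91 (SE 0.39, adjusted p = 0.000731). At 0.5% O2 Gdf5 was lower in all 3 differentiated cultures. Hypoxic osteoblast libraries held 1.16, 1.61 and 1.72 CPM, all below the normoxic ones, and Gdf5 fell by 1.51 (SE 0.29, adjusted p = 0.00196). Hypoxic chondrocyte libraries held 0.773, 0.315 and 0.723 CPM, also below all normoxic ones, and Gdf5 fell by 1.58 (SE 0.45, adjusted p = 0.026). That last call was not stable: the adjusted p was 0.0618 with limma-voom, and between 0.00864 and 0.0906 when single libraries were left out, failing without normoxic chondrocyte replicate 2 or 3 or hypoxic chondrocyte replicate 2 or 3. Hypoxic smooth muscle libraries had 0, 0 and 5 counts, and the fitted level fell by 5.31 (SE 0.58, adjusted p = 6.86e-07), which moved to -4.64 without replicate 1 there. The size rests on replicate 3, the only one with a count: without it the fitted value was -10.40, which depends on the prior count and is no bound. Proliferating cultures overlapped between oxygen levels (0.377 to 0.975 CPM at 0.5% O2), with no called difference (0.42, SE 0.42, adjusted p = 0.394).

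The change of Gdf5 from proliferating culture was smaller at 0.5% O2 than at 21% O2 in chondrocyte (-1.99, SE 0.65, adjusted p = 0.0178), osteoblast (-1.90, SE 0.50, adjusted p = 0.00438) and smooth muscle cultures (-5.71, SE 0.77, adjusted p = 7.16e-07). The chondrocyte difference was not called without hypoxic proliferating replicate 1 (-1.58, adjusted p = 0.081), and the smooth muscle one was -5.04 without hypoxic smooth muscle replicate 1 and -11.10, again with no count left in that group, without replicate 3. Against hypoxic proliferating cultures, Gdf5 rose by 1.19 in osteoblast cultures (SE 0.40, adjusted p = 0.0149), which failed without hypoxic proliferating replicate 3 (0.91, adjusted p = 0.0648). It was not called in chondrocyte cultures (-0.11, SE 0.49, adjusted p = 0.853) or in smooth muscle cultures (-1.98, SE 1.06, adjusted p = 0.111). The smooth muscle change was called with limma-voom (-2.56, adjusted p = 0.026), in the fit of all 28 libraries (-2.12, adjusted p = 0.0161) and with library totals alone (-3.21, adjusted p = 0.0117). It ran from -6.86 to -1.32 when single libraries were left out, the first without hypoxic smooth muscle replicate 3 (adjusted p = 0.0121), where no count is left in that group and the value is no bound.

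Bmp6, a ligand tied to bone and, in liver, to iron control, never passed 0.993 CPM. Proliferating cultures at 0.5% O2 had 12, 22 and 29 counts (0.390, 0.790 and 0.993 CPM), against 8, 1, 1 and 1 counts (0.215, 0.0135, 0.0331 and 0.035 CPM) at 21% O2. All hypoxic libraries were above all normoxic ones, and Bmp6 rose by 3.41 (SE 0.70, adjusted p = 0.000609). The fold rests on few counts, being 4.84 without normoxic replicate 1 and 2.82 without normoxic replicate 2. Txndc5, whose transcript meets a Bmp6 exon from the other strand, was 285 to 303 CPM in the hypoxic and 299 to 315 CPM in the normoxic proliferating libraries, and its part in the Bmp6 values was not tested. In osteoblast cultures the order was the other way round, with 0.594, 0.434, 0.407 and 0.288 CPM at 21% O2 and 0.155, 0.103 and 0.141 CPM at 0.5% O2 (log2 fold change -1.67, SE 0.49, adjusted p = 0.0164). Txndc5 was also lower there (280 to 347 CPM against 456 to 596), and its part in the Bmp6 values was not tested. The osteoblast call failed without hypoxic osteoblast replicate 2 (-1.51, adjusted p = 0.0608) and with no filter and in the fit of all 28 libraries (adjusted p = 0.16). Compared with hypoxic proliferating cultures, Bmp6 fell by 3.86 in chondrocyte (SE 0.87, adjusted p = 0.00113) and by 2.41 in osteoblast cultures (SE 0.58, adjusted p = 0.00146). In smooth muscle cultures the change was not called (-0.30, SE 0.82, adjusted p = 0.756). The chondrocyte value was -3.27 without hypoxic chondrocyte replicate 1, and replicate 3 was the only library there with any count (4). Without it the fitted value, -7.39, depends on the prior count and is no bound. The differences from the normoxic changes were -5.79 in chondrocyte (SE 1.75, adjusted p = 0.0116) and -5.00 in osteoblast cultures (SE 0.96, adjusted p = 0.000305). The smooth muscle difference was not called (-1.25, SE 1.27, adjusted p = 0.373). Leaving out normoxic chondrocyte replicate 2 ended the chondrocyte call (-3.93, adjusted p = 0.0729). Without normoxic proliferating replicate 1 the chondrocyte and osteoblast differences were -7.22 and -6.43. Without hypoxic chondrocyte replicate 3 the chondrocyte difference was -9.50, again with no count left in that group.

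**Figure D4:**
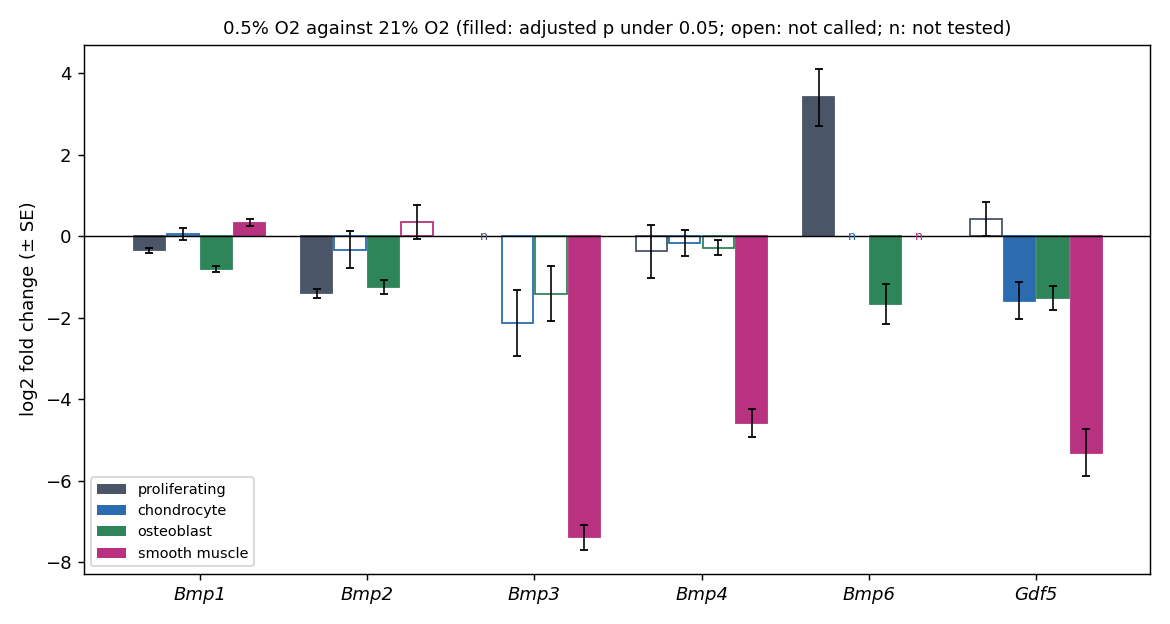
Log2 fold change at 0.5% against 21% O2 (bars, ± SE) for the 6 tested genes in the 4 kinds of culture, with filled bars for adjusted p under 0.05, open bars for uncalled changes and n for genes not tested. The smooth muscle bars of Bmp3 (-7.39), Gdf5 (-5.31) and Bmp4 (-4.58) reach lowest, and Bmp6 in proliferating cultures (3.41) highest.

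Bmp1, the protease, was detected in every library and was highest in chondrocyte cultures. It stood at 83.7, 86.0, 81.9 and 89.6 CPM in normoxic and 66.6, 67.5 and 59.7 CPM in hypoxic proliferating libraries, with no overlap, and Bmp1 fell by 0.35 on the log2 scale with low oxygen (SE 0.06, adjusted p = 0.000166). Chondrocyte cultures held 626, 550, 553 and 433 CPM at 21% O2 and 464, 615 and 604 CPM at 0.5% O2, overlapping with each other (0.05, SE 0.14, adjusted p = 0.852). The rises from proliferating were 2.74 (SE 0.10, adjusted p = 4.09e-10) and 3.11 (SE 0.12, adjusted p = 2.40e-09). Osteoblast cultures held 267, 266, 268 and 236 CPM at 21% O2 and 143, 153 and 151 CPM at 0.5% O2. Every hypoxic osteoblast library was below every normoxic one, and Bmp1 fell by 0.80 (SE 0.08, adjusted p = 4.82e-05). Smooth muscle cultures held 205, 199, 189 and 201 CPM at 21% O2 and 263, 227 and 226 CPM at 0.5% O2. Bmp1 was higher in all 3 hypoxic smooth muscle libraries (0.33, SE 0.08, adjusted p = 0.00118), but scaling by library totals alone gave -1.04 (adjusted p = 2.81e-08), so the direction depends on how those libraries are scaled. The difference between hypoxic and normoxic changes from proliferating was -0.41 in osteoblast cultures (SE 0.09, adjusted p = 0.0017). In smooth muscle cultures it was 0.72 (SE 0.10, adjusted p = 8.50e-07), or -0.62 with library totals alone. The chondrocyte difference of 0.41 (SE 0.16, adjusted p = 0.0472) sat at the threshold and failed in 19 of 22 alternatives.

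Chondrocyte and osteoblast cultures, both given BMP-2 protein, were compared directly. At 21% O2 5 of 6 tested members were called (59.7% of all genes), and at 0.5% O2 5 of 5 (57.6%). In chondrocyte cultures Bmp1 was higher by 1.04 (SE 0.11, adjusted p = 3.54e-05) at 21% O2 and by 1.92 (SE 0.11, adjusted p = 1.57e-08) at 0.5% O2. Bmp4 was lower there by both comparisons (-2.36, SE 0.27, adjusted p = 6.37e-05, and -2.21, SE 0.23, adjusted p = 7.02e-06). Bmp2 was higher in the hypoxic comparison (2.05, SE 0.16, adjusted p = 1.93e-07). Its normoxic difference (1.10, SE 0.36, adjusted p = 0.0257) failed without any 1 of the 4 normoxic osteoblast libraries, with adjusted p from 0.0549 to 0.0645. Bmp3 was lower in chondrocyte cultures at 0.5% O2 (-3.14, SE 0.47, adjusted p = 7.49e-05), and at 21% O2 (-2.47, SE 0.82, adjusted p = 0.0283), where the call failed without normoxic chondrocyte replicate 1, 2 or 3 or normoxic osteoblast replicate 1, 2 or 3. Without normoxic chondrocyte replicate 4 it was -3.13. Gdf5 was lower at 21% O2 (-1.25, SE 0.35, adjusted p = 0.0108) and at 0.5% O2 (-1.29, SE 0.42, adjusted p = 0.0182), the latter failing without hypoxic chondrocyte replicate 2 or hypoxic osteoblast replicate 2 or 3. Bmp6 differed by -0.73 at 21% O2 (SE 0.89, adjusted p = 0.495), and by -2.56 without normoxic chondrocyte replicate 2 (adjusted p = 0.0155).

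Over all genes the difference between hypoxic and normoxic changes was called for 43.5% in chondrocyte, 54.2% in osteoblast and 70.4% in smooth muscle cultures. Among the members it was called for 3 of 6, 3 of 6 and 5 of 6.

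The machinery around the ligands was described through lists of receptors, co-receptors, Smads, proteases, antagonists and target genes. Of 7 receptors, 6 rose and 1 fell in normoxic chondrocyte cultures against proliferating ones (74.9% of all genes called), with a median log2 fold change of 1.45 against 0.00 for all genes. Acvr1, a type I receptor, rose by 2.03 (SE 0.064), and Bmpr2, the main type II receptor, by 1.45 (SE 0.078). Osteoblast cultures showed 5 of 6 tested receptors higher at 21% O2 (78.7% of all genes called) and 5 higher with 1 lower at 0.5% O2 (71.3%). In smooth muscle cultures 5 of 7 rose and 1 fell at 21% O2 (79.7%), while at 0.5% O2 2 of 6 rose and 2 fell (70%). In chondrocyte cultures 3 of 4 tested co-receptors fell and 1 rose at 21% O2 (median -1.70, 74.9% of all genes called), and 4 of 4 fell at 0.5% O2 (median -1.97, 69.5% called). Among them Rgmb, a co-receptor of the repulsive guidance family, fell by 1.54 (SE 0.081) and by 1.51 (SE 0.080), and Rgma of the same family fell by 1.86 (SE 0.16) and by 2.43 (SE 0.19). Smad9, the least abundant of the BMP-responsive Smads in proliferating cultures, moved most of the 4 Smads. It rose from 0.255 ± 0.0488 to 20.6 ± 2.49 CPM in chondrocyte and to 22.9 ± 11.6 CPM in osteoblast cultures at 21% O2 (SD, n = 4). In hypoxic osteoblast cultures it reached 96.7 ± 5.67 CPM (SD, n = 3), higher than at 21% O2 by 2.07 on the log2 scale (SE 0.33, adjusted p = 0.0012). The normoxic osteoblast group holds replicate 4, which stood apart over all genes, and genes of these lists were not examined without single libraries.

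Of 8 target and feedback genes (Id1 to Id4, Smad6, Smad7, Bambi, Atoh8), 7 rose and 1, Id4, fell in chondrocyte cultures at either oxygen level, where 74.9% (21% O2) and 69.5% (0.5% O2) of all genes were called. In osteoblast cultures 6 rose at 21% O2 (78.7% of all genes called) and 7 at 0.5% O2 (71.3%), with none called lower. Their median log2 fold change was 2.56 and 1.88 in chondrocyte and 1.97 and 2.22 in osteoblast cultures at 21% and 0.5% O2, against medians of all genes between -0.02 and 0.07. Smad6, an inhibitory Smad induced by BMP signals, rose from 2.25 ± 0.52 to 73.3 ± 11.6 CPM in normoxic chondrocyte cultures (SD, n = 4; log2 fold change 5.13, SE 0.17). Id2, which blocks basic helix-loop-helix factors, rose from 2.60 ± 0.639 to 42.5 ± 9.89 CPM (4.09, SE 0.21). Normoxic smooth muscle cultures, given no BMP protein, had 5 targets higher and 1 lower (79.7% of all genes called), with Id2 at 52.9 ± 4.29 CPM (SD, n = 4). At 0.5% O2 smooth muscle cultures had 2 targets higher and 5 lower than at 21% O2 (75.6% of all genes called), and Id2 stood at 24.7 ± 9.26 CPM (SD, n = 3). In proliferating cultures 4 targets were higher and 2 lower at 0.5% O2 (65.4% of all genes called), with Id2 higher by 2.04 (SE 0.17, adjusted p = 1.48e-07).

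Among the antagonists, Grem1 (gremlin) was abundant in proliferating cultures, at 580 ± 12.8 CPM (SD, n = 4), and fell to 143 ± 27.4 CPM in normoxic chondrocyte cultures (-1.95, SE 0.12). It reached 1842 ± 317 CPM in hypoxic osteoblast cultures (SD, n = 3) against 640 ± 182 CPM at 21% O2 (SD, n = 4), higher by 1.52 (SE 0.21, adjusted p = 0.00032). That normoxic group holds the deviant replicate 4 too, and Grem1 was not examined without it. Chrdl1, a chordin-like antagonist, rose from 1.02 ± 0.368 to 162 ± 28.1 CPM in normoxic chondrocyte cultures (SD, n = 4), but stood at 2.64 ± 0.875 CPM in hypoxic ones (SD, n = 3), a log2 fold change of -5.94 (SE 0.24, adjusted p = 3.4e-06). Of 7 antagonists tested in chondrocyte cultures, 5 were lower at 0.5% than at 21% O2 and none higher. Their median log2 fold change was -1.10 against -0.01 for all genes, whereas 22.2% of all genes were called. Nog (noggin) was among them (-1.79, SE 0.32, adjusted p = 0.0023).

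Of the proteases that mature the ligands, all 4 tested rose in normoxic chondrocyte cultures (74.9% of all genes called), and 3 of 3 rose in hypoxic chondrocyte cultures (69.5%) and in normoxic (78.7%) and hypoxic (71.3%) osteoblast cultures. In smooth muscle cultures 2 of 3 rose and 1 fell at 21% O2 (79.7%), and 1 of 2 fell with none higher at 0.5% O2 (70%). Their summed level in smooth muscle cultures was 160 to 172 CPM at 21% O2, against 162 to 177 CPM in proliferating cultures, and 64.3 to 81.5 CPM at 0.5% O2, against 167 to 184 CPM. Furin rose by 0.89 (SE 0.056) and Pcsk7 by 0.98 (SE 0.084) in normoxic chondrocyte cultures. Tll1, the tolloid relative of Bmp1, went from 0.188 ± 0.0653 CPM in normoxic proliferating to 253 ± 29.6 CPM in chondrocyte, 32.4 ± 1.41 CPM in osteoblast and 9.19 ± 0.736 CPM in smooth muscle cultures (SD, n = 4). At 21% O2 Bmp1 shared that order of levels, highest in chondrocyte and lowest in proliferating cultures, over a far narrower range. Pcolce, which boosts the procollagen-cutting activity of Bmp1, rose by 1.02 in normoxic chondrocyte (SE 0.076), 1.69 in osteoblast (SE 0.069) and 1.46 in smooth muscle cultures (SE 0.067). In hypoxic smooth muscle cultures Tll1 was different from normoxic ones by -4.30 (SE 0.32) while Pcolce did not pass the test (0.05, SE 0.09, adjusted p = 0.65).

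The genes whose log2 CPM followed each member most closely over the 28 libraries were found among 13415 genes. These correlations are descriptions, since libraries of 1 group share their culture and depth. They were Rgp1 (r = 0.954) and Pdlim7 (0.951) for Bmp1, Mthfd2 (0.948) and Mars (0.924) for Bmp2, and Sesn3 (0.927) and Cpxm1 (0.918) for Bmp3. For Bmp4, Mme followed most closely (0.964), and for Gdf5 they were Zfp791 (0.937) and Pcdhb11 (0.928). Bmp6 had no close match, its nearest being Camta1 (0.743) and Col4a1 (0.662).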

How the data were processed

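RNA from 28 O9-1 libraries was counted per gene by the authors and deposited as raw counts. The submitters' processing notes name HISAT2 2.0.5, StringTie 1.3.3b, featureCounts 1.5.0-p3 and mm10. The gene annotation and the use of strand are not given in the sources used here. Symbols came from the deposited tables (20019 identifiers) and a reference table (54330 with either), and positions and exon lengths from GENCODE on GRCm38. The authors' deposited comparison tables, in log2 fold change, were used for symbols and were not tested. In the same tables, 70 per-library normalised columns were not used.

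Counts were filtered with filterByExpr, scaled by TMM and tested in edgeR 4.0.16 (R 4.3.3) with robust quasi-likelihood fits on the groups compared. The difference between oxygen levels was tested as an interaction over 4 groups. The SE is the log2 fold change, fitted without a prior count, divided by the root of the test's F. It thus reflects the test against no change, and not the error of a large fold that rests on few counts. Alternatives were RLE size factors, DESeq2 1.42.0, limma-voom (limma 3.58.1), library totals alone, no filter, a fit of all 28 libraries, a replicate block and leaving out each library. A further fit on replicates 1 to 3 alone was added after seeing the data. Tested on simulated counts for normoxic chondrocyte against proliferating cultures (13920 genes), the fit recovered 95% of genes changed by 1 on the log2 scale and 100% of those changed by 2, and 7.58% of its calls were false. The simulated chondrocyte interaction (14639 genes) recovered 70% and 100%, with 3.41% of calls false. The simulation gave every gene the same relative scatter between replicates and changed 200 genes, all taken from well counted ones. The data had far more called genes, uneven replicates and members with few counts. These rates therefore check the code and do not measure the tests reported above. The members and lists were chosen with earlier results of these data known. Named genes were the 10 members, the 2 most correlated genes per member with a mean of at least 10 counts in a group (1 such gene is not reported here), and at most 2 genes of each list with the smallest adjusted p in a comparison described. Genes named further for their levels were chosen after their values were seen.

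Replicates of a group differed by more than sampling noise in all 36 pairs (chi-square per degree of freedom 2.89 to 97.4), so none was merged.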

Additional observations from a re-analysis of the deposited data

Results flagged for a closer look

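In groups of 4 libraries, 7 of 26 tested sets of values had 1 library whose gap to its neighbour was over 0.829 of the whole range, where chance gives about 1 in 20. In normoxic smooth muscle cultures, replicate 4 was lowest for Bmp3 (70.4 CPM) and highest for Bmp4 (24.7 CPM), and replicate 1 was highest for Gdf5 (7.5 CPM). In normoxic osteoblast cultures, replicate 4 was lowest for Bmp1 (236 CPM) and for Bmp3 (0.609 CPM). The other 2 were Bmp6 values of few counts, in normoxic proliferating replicate 1 (0.215 CPM) and normoxic chondrocyte replicate 2 (0.889 CPM). Replicate 4 was made at 21% O2 only. In the normoxic osteoblast group, pairs with it had a chi-square per degree of freedom of 91.4 to 97.4 over all genes, against 2.89 to 3.88 among the other replicates. These ranges were 18.3 to 22.6 against 5.18 to 5.88 in normoxic proliferating, 14.0 to 20.3 against 6.1 to 7.95 in smooth muscle and 27.9 to 36.6 against 8.59 to 30.5 in chondrocyte cultures, overlapping only in the last.

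The change from proliferating culture differed between 0.5% and 21% O2 for 11 values by edgeR's interaction test. In chondrocyte cultures these were Bmp1 (0.41), Bmp6 (-5.79) and Gdf5 (-1.99). In osteoblast cultures they were Bmp1 (-0.41), Bmp6 (-5.0) and Gdf5 (-1.9). In smooth muscle cultures they were Bmp1 (0.72), Bmp2 (1.79), Bmp3 (-7.55), Bmp4 (-4.14) and Gdf5 (-5.71), all on the log2 scale. The smooth muscle values rest on the 3 libraries with 11.6 to 13.3% mitochondrial ribosomal RNA, whose part in the result was not tested.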

How the results depend on the processing

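Of 1293 alternative values for 80 member changes, 1201 kept their direction and side of the threshold, 55 lost a call, 15 gained one and 22 changed sign. In 3 of these the alternative was called, all with scaling by library totals alone and in hypoxic smooth muscle cultures: Bmp1 against normoxic smooth muscle (-1.04), its smooth muscle interaction (-0.62) and Bmp2 against normoxic smooth muscle (-1.02). The other 19 were uncalled on both sides. In hypoxic against normoxic chondrocyte cultures Bmp1 turned to -0.03 with library totals alone and to -0.05 with a replicate block or replicates 1 to 3 alone, and Bmp4 to 0.03 with the block and 0.08 with replicates 1 to 3. When single libraries were left out, the values that turned were there Bmp1 (-0.05 to 0.17), Bmp4 (-0.55 to 0.08) and Bmp2 (-0.51 to 0.19). Elsewhere they were Bmp2 in normoxic chondrocyte (-0.08 to 0.62), Gdf5 in hypoxic chondrocyte (-0.39 to 0.3) and Bmp6 in hypoxic smooth muscle against proliferating cultures (-0.8 to 0.23), Bmp4 between proliferating cultures (-1.59 to 0.17) and Bmp4 in the chondrocyte (-0.32 to 1.45) and osteoblast (-0.39 to 1.38) interactions. That scaling moved the median of all genes by -1.28 against hypoxic proliferating and by -1.37 against normoxic smooth muscle cultures, and the share of calls that were higher from 48.3 to 15.0% and from 46.8 to 15.6%. It moved by over 10 percentage points also in normoxic (50.3 to 34.7%) and hypoxic (50.2 to 31.8%) chondrocyte and hypoxic osteoblast (50.8 to 38.2%) against proliferating cultures, in chondrocyte (46.9 to 31.8%) and osteoblast (49.6 to 36.9%) cultures between oxygen levels, in normoxic chondrocyte against osteoblast cultures (48.0 to 34.3%) and in the smooth muscle interaction (49.6 to 16.6%).

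For hypoxic against normoxic chondrocyte cultures, 1 member was called. The count was 0 with limma-voom, 2 with DESeq2 and 0 with a replicate block, and 0 to 2 when single libraries were left out. All genes called ranged from 2091 to 3359 there (3157 with all libraries). For normoxic chondrocyte against osteoblast cultures 5 members were called, but 3 with no filter, 3 with a replicate block and 3 to 5 when single libraries were left out. For the chondrocyte interaction 3 were called, and 1 to 4 when single libraries were left out. The cause was not tested. Replicate numbers did not pair the libraries: correlations of same-numbered libraries ran from -0.177 to 0.081, and in 0 of 12 comparisons were all over 0.1. Depth limits Bmp3, Bmp4, Bmp6 and Gdf5 in groups that hold libraries with fewer than 10 counts, where a fold change rests on a few reads, and Bmp5, Bmp7, Gdf6 and Gdf10 could not be tested.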

Other observations

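The 12 BMP and GDF ligands outside the 10 genes above included 2 with a group mean over 10 CPM, Bmp8a and Gdf11 (7.33 to 31.9 CPM over the 8 groups). Bmp8a, which shares near-identical sequence with Bmp8b so that reads can be split between them, had 2 counts in the 4 normoxic proliferating libraries together. It stood at 31.3 ± 8.72 CPM in chondrocyte and at 11.8 ± 1.61 CPM in osteoblast cultures at 21% O2 (SD, n = 4). At 0.5% O2 it was 29.2 ± 3.0 CPM in chondrocyte and 41.2 ± 3.23 CPM in osteoblast cultures (SD, n = 3), and the osteoblast level was higher than at 21% O2 by 1.79 on the log2 scale (SE 0.12, adjusted p = 4.3e-06). Smooth muscle cultures had 5 counts at 21% O2 and 3 at 0.5% O2 in all libraries together. Bmp8b stayed between 0.185 and 0.568 CPM in the group means. Bmp8a was thus present in the chondrocyte and osteoblast groups and near 0 in normoxic proliferating and both smooth muscle groups. This pattern was noticed after its values were seen. The chondrocyte and osteoblast groups were given BMP-2 protein, but also 0.1 µM dexamethasone and osteoblast medium, which no other group had. These cannot be told apart.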
